A study of Mus musculus with 56 samples.

Results

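The genes described here encode the pore-forming alpha1 subunits of voltage-gated calcium channels in mouse prefrontal cortex. The 8 genes, Cacna1a, Cacna1b, Cacna1c, Cacna1d, Cacna1e, Cacna1g, Cacna1h and Cacna1i, were chosen by symbol among the 18088 genes of the deposited table, and all 8 passed the filter on low values. RNA from the prefrontal cortex of 56 C57BL/6J mice was sequenced on postnatal day 25. The mice were heterozygous for Scn2a (HT), the gene of a neuronal sodium channel, or wild type (WT), and the labels do not describe the allele. They had been given lithium, fluoxetine or vehicle through their mothers' milk between day 3 and day 24. There were 10 libraries of HT lithium mice, 9 of HT fluoxetine, 10 of HT vehicle, 9 of WT lithium, 9 of WT fluoxetine and 9 of WT vehicle, with 4 or 5 libraries of each sex in every group. Lithium is a mood stabiliser, and fluoxetine is an antidepressant that blocks serotonin reuptake. Each drug reached the pups through a dam, yet no litter or dam is labelled. If littermates are among the libraries, p-values of drug effects measure the spread between these libraries and are too small.

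An alpha1 subunit forms the whole calcium pore, from 4 linked domains that each hold a voltage sensor and a stretch of the pore lining. The family has 3 classes, which are used below to order the genes. The Cav2 channels, made by Cacna1a (P/Q-type), Cacna1b (N-type) and Cacna1e (R-type), admit the calcium that triggers transmitter release at nerve terminals. The Cav1 or L-type channels of neurons, made by Cacna1c and Cacna1d, sit mostly on cell bodies and dendrites and couple electrical activity to signalling and transcription. The Cav3 or T-type channels, made by Cacna1g, Cacna1h and Cacna1i, open near the resting potential and underlie burst firing.

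The coding sequence sets the Cav3 class apart from the other classes at the selectivity filter, where 1 acidic residue from each domain lines the narrowest point of the pore. The stretches below are the 30 coding bases around that residue in the pore loop of domain III, read on each gene's own strand from GENCODE vM21 transcripts on GRCm38, with the codon of the filter residue in capitals. They were located by a search of every gene for set residues around a glutamate or other set residues around an aspartate. The filter codons and the shared bases therefore follow in part from that search.
Cacna1a: acagtgtccacaggaGAGggctggccacag
Cacna1b: acagtgtccacgggaGAGgggtggcccatg
Cacna1e: acagtctctacagggGAAggatggcctcag
Cacna1c: accgtctccaccttcGAAgggtggccagag
Cacna1d: acagtctcaacttttGAGggctggcccgcg
Cacna1g: gtgctggcctccaagGATggctgggttgac
Cacna1h: gtgctgtcatccaagGATggctgggtaaac
Cacna1i: gtcttggcctccaagGATggctgggtgaac
The 5 Cav2 and Cav1 genes carry GAG or GAA there, both codons for glutamate, and the 3 Cav3 genes carry GAT, which encodes aspartate. Any 2 Cav3 stretches shared 25 to 26 of the 30 bases, and any 2 of the 5 others shared 20 to 25, with 20 to 21 between a Cav1 and a Cav2 stretch. A Cav3 stretch and one of another class shared 11 to 15. The stretch lay within exon 24 in each Cav3 transcript and crossed an exon boundary in each of the other 5.

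Some members overlap other genes of the table. Cacna1c (chromosome 6, 118587240 to 119196418, minus strand) overlaps Dcp1b on the opposite strand, and Cacna1d (chromosome 14, 30039939 to 30491455, minus strand) overlaps Chdh and Dcp1a on the opposite strand. These overlaps are of whole gene spans, introns included, and overlap of exons was not looked at. The libraries were stranded, but whether the counting used the strand is not given in the sources used here. Where exons of such genes share bases, their reads may not be told apart. The remaining members lie on chromosome 8 (Cacna1a, 84388440 to 84640246, plus strand), chromosome 2 (Cacna1b, 24603887 to 24763152, minus), chromosome 1 (Cacna1e, 154390731 to 154884501, minus), chromosome 11 (Cacna1g, 94408391 to 94474198, minus), chromosome 17 (Cacna1h, 25374285 to 25433783, minus) and chromosome 15 (Cacna1i, 80287238 to 80398279, plus).

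Values are normalised read counts, that is, reads divided by 1 size factor per library, and depth was 24.3 to 36.4 M reads. Scn2a itself was at 7583 to 9619 normalised reads in the 29 HT libraries and at 9727 to 13381 in the 27 WT libraries. The groups did not overlap, which matched every genotype label. The 7 excitatory neuron markers of cortex, Slc17a7 among them, were detected in every library and summed to between 170264 and 228635 normalised reads. Markers of neighbouring tissue were uneven, as scored by the mean over a marker list of log2 deviations from the median library. The score of olfactory bulb and migrating neuroblast markers was above 1 in 11 libraries and the striatal score in 9, which made 19 libraries in all. The summed 12 olfactory markers ran from 3526 to 20424 and the summed 11 striatal markers from 5209 to 23490 normalised reads. These 19 libraries came from every group except WT lithium females and WT vehicle males. The called members and some of the uncalled values are given with and without them. Other values are given from all 56 libraries only.

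Cacna1e, the R-type gene, was the most abundant member per kb of coding sequence, and Cacna1h and Cacna1d the least. Levels were set side by side per kb of coding sequence, as the mean ± SD over all 56 libraries. The Cav2 genes stood at 1378 ± 104 for Cacna1e, 1074 ± 74.7 for Cacna1a and 756 ± 46 for Cacna1b, in normalised reads per kb. The Cav3 genes stood at 754 ± 38.7 for Cacna1i, 605 ± 38.1 for Cacna1g and 346 ± 47.9 for Cacna1h. The Cav1 genes stood at 518 ± 47.7 for Cacna1c and 354 ± 23.8 for Cacna1d. Together the 3 Cav2 genes made up 55.4 ± 1.66% of the summed level per kb, the Cav3 genes 29.5% and the Cav1 genes 15.1 ± 1.04%.

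Most steps in this order held library by library. Cacna1e was above Cacna1a in 56 of 56 libraries, and Cacna1a was above Cacna1b in 56 of 56 with ranges that did not overlap. Cacna1i exceeded Cacna1g in 56 of 56, Cacna1g exceeded Cacna1c in 55 of 56, and Cacna1c exceeded Cacna1d in 56 of 56. At 2 steps the neighbours were not separated: Cacna1b was above Cacna1i in 32 of 56 libraries and Cacna1d above Cacna1h in 34 of 56. The order depended on the length used. Per kb of the longest protein-coding transcript, untranslated parts included, Cacna1a (963 ± 66.9) stood above Cacna1e (630 ± 47.6) in 56 of 56 libraries, and Cacna1c (263 ± 24.2) was the lowest. On that scale the Cav2 genes made up 53.5%, the Cav3 genes 33.2% and the Cav1 genes 13.3%.

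**Figure D1:**
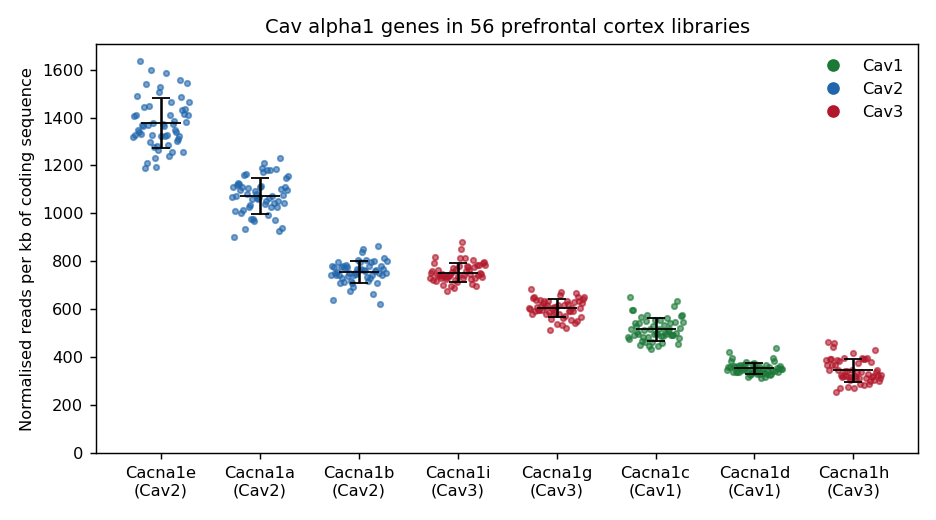
Normalised reads per kb of coding sequence (y axis) for each of the 8 genes (x axis, ordered by mean). Each point is 1 of 56 libraries, the bars are the mean and SD, and colours mark the class. Cacna1e lies highest at 1378 ± 104, and Cacna1d and Cacna1h overlap at the low end.

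Members also differed in how much they varied. Cacna1i was the steadiest, with a coefficient of variation of 5.13% over the 56 libraries, and Cacna1h the most variable at 13.8%. Cacna1b (6.08%), Cacna1g (6.29%), Cacna1d (6.72%), Cacna1a (6.95%), Cacna1e (7.56%) and Cacna1c (9.2%) lay between them.

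Under lithium 1 member, the T-type gene Cacna1h, was higher in HT mice. Its values in HT lithium females were 2744, 2596, 3280, 2469 and 2781 normalised reads, against 2419, 2280, 2436, 1961 and 2252 in HT vehicle females, so that every lithium female lay above every vehicle female. In HT lithium males they were 2791, 2594, 3132, 3267 and 2616, against 2167, 2246, 2470, 2958 and 1933 in HT vehicle males. One vehicle male, at 2958, lay within the lithium range. Cacna1h thus averaged 2827 ± 295 in HT lithium libraries and 2312 ± 292 in HT vehicle libraries (SD, n = 10 each), and 10 of 10 lithium libraries exceeded the vehicle mean of their sex. The log2 change was 0.29 ± 0.0794 (SE), or 22.5% (limma, Benjamini-Hochberg adjusted p = 0.015), with 0.29 in females and 0.30 in males. In bulk tissue, more cells that carry a transcript and more of it per cell cannot be told apart.

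**Figure D2:**
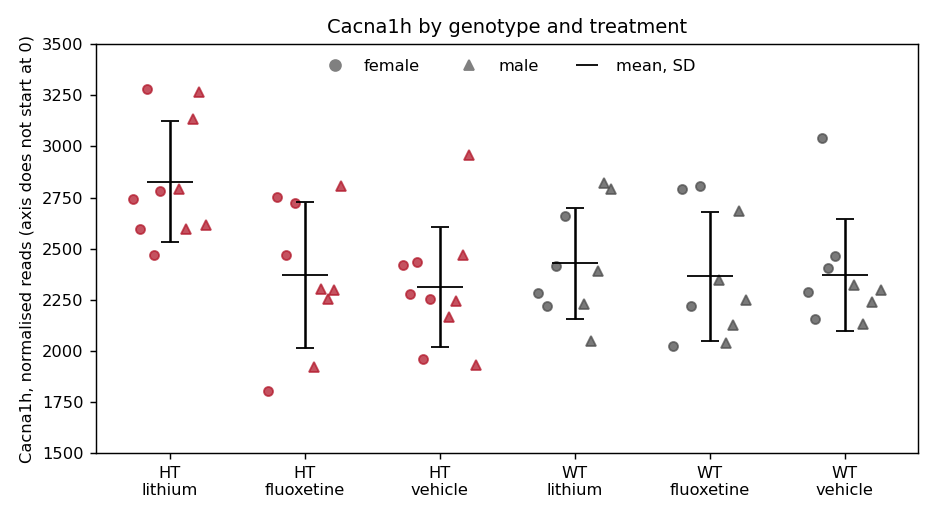
Cacna1h in normalised reads (y axis, not starting at 0) in each library, by genotype and treatment (x axis), with HT in red and WT in grey. Circles are females, triangles males, and bars the mean and SD. The 10 HT lithium libraries lie between 2469 and 3280, and the other 5 groups have means between 2312 and 2429.

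Of the 8 members, 1 was called in HT lithium against HT vehicle mice, where 8.77% of all 17778 tested genes were called. The other 7 had positive log2 changes that were not called. They were 0.11 for Cacna1c, 0.09 for Cacna1g (unadjusted p = 0.017, adjusted p = 0.12), 0.08 for Cacna1d, 0.07 for Cacna1e, 0.04 for Cacna1i, 0.02 for Cacna1a and 0.01 for Cacna1b. The median over the 8 members was 0.08, and 49.7% of all tested genes lay above 0. The share of the Cav3 class per kb was 30.2 ± 1.14% in HT lithium and 29.3 ± 0.902% in HT vehicle libraries. In females it was 30.2% against 30%, and in males 30.1% against 28.7%.

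The Cacna1h call in HT mice was lost in 2 of the 12 alternative settings. Without the 19 libraries of high marker score, which left 6 of 10 in both groups, the log2 change stayed at 0.29 and the adjusted p was 0.091. With the striatal and olfactory scores as covariates it was 0.29 with an adjusted p of 0.0035. With slopes that describe how each library's expression depended on transcript length and on GC content as covariates it was 0.24 with an adjusted p of 0.12. The length slope, in log2 units per SD of log2 transcript length, was −0.01 to 0.05 in HT lithium libraries and −0.04 to 0.02 in HT vehicle libraries. The excitatory marker score was −0.31 to 0.07 in HT lithium and −0.21 to 0.11 in HT vehicle libraries, and the olfactory score −0.73 to 1.99 and −0.55 to 1.36 in the same groups. Summed normalised reads of the 7 excitatory markers were 173795 to 219216 in HT lithium and 195614 to 214417 in HT vehicle libraries, and those of the 12 olfactory markers 4413 to 19891 and 4663 to 13033. Of the 8 endothelial markers, 1 was called higher and 3 lower in HT lithium mice, with summed reads of 6465 to 8028 against 6754 to 9444 in HT vehicle mice. Of the 9 microglia markers, 0 had a change above 0 and 1 was called lower, with summed reads of 9930 to 12024 against 10307 to 13289 in HT vehicle mice. The part of the endothelial and microglia marker differences in the Cacna1h result was not tested.

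In WT mice Cacna1h did not pass the test under lithium. It ranged from 2047 through a median of 2393 to 2819 normalised reads in WT lithium libraries and from 2132 through 2300 to 3042 in WT vehicle libraries, and the ranges overlapped over most of their width. Its log2 change was 0.04 ± 0.0842 (adjusted p = 0.83). The lithium effect in HT minus that in WT was 0.25 ± 0.116 for Cacna1h (unadjusted p = 0.033, adjusted p = 0.43), which did not pass the threshold. Under lithium, HT minus WT was 0.22 ± 0.0818 for Cacna1h (adjusted p = 0.35), with 10 of 10 HT lithium libraries above the WT lithium mean of their sex. Over both genotypes Cacna1h averaged 2638 ± 343 in the 19 lithium libraries and 2341 ± 277 in the 19 vehicle libraries. The log2 change was 0.17 ± 0.0578 (limma, adjusted p = 0.041), and 14 of 19 lithium libraries exceeded their vehicle mean. It was the 1 member called in that comparison, where 16.2% of all genes were called. This call was narrow: edgeR on recovered reads gave 0.16 with an adjusted p of 0.051, and the call was kept in 39 of 56 fits that each left out 1 library. Without the 19 libraries of high marker score it was 0.14 (adjusted p = 0.2), and with the slopes as covariates 0.10 (adjusted p = 0.43). Over both genotypes 3 of the 9 microglia markers and 3 of the 8 endothelial markers were called lower under lithium, and 1 endothelial and 1 excitatory marker higher. The part of these microglia, endothelial and excitatory markers in the value over both genotypes was not tested. Of the 12 olfactory markers, 1 was called lower and 0 had a change above 0, with a median of −0.20. The olfactory score differed by −0.25 between lithium and vehicle libraries over both genotypes.

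No member was called in WT lithium against WT vehicle mice by limma, voom, edgeR or DESeq2, where limma called 5.71% of all genes. At an unadjusted p under 0.05 there was 1, Cacna1d, beside 3810 of all 17778 tested genes. This L-type gene ran from 2057 through 2219 to 2390 normalised reads in WT lithium libraries and from 2211 through 2328 to 2862 in WT vehicle libraries, and 9 of 9 lithium libraries lay below the vehicle mean of their sex although the ranges overlapped. Its log2 change was −0.09 ± 0.0425 (unadjusted p = 0.04, adjusted p = 0.21). In HT mice the same gene had 2211 through 2358 to 2755 in lithium libraries and 2072 through 2246 to 2491 in vehicle libraries, with a log2 change of 0.08 ± 0.0401 (adjusted p = 0.22).

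The other L-type gene, Cacna1c, had log2 changes of 0.11 ± 0.0572 in HT and −0.11 ± 0.0607 in WT mice. The interaction of genotype and lithium was 0.21 for Cacna1c (unadjusted p = 0.014), 0.17 for Cacna1d (unadjusted p = 0.0054) and 0.15 for Cacna1g (unadjusted p = 0.0079). The smallest adjusted p of the 8 members in that comparison was 0.29. None of them was called by limma, voom, edgeR or DESeq2, and limma called 0% of all genes there. At an unadjusted p under 0.05 there were 4 members, and 1934 of all 17778 tested genes. The olfactory marker score, with which Cacna1c and Cacna1d moved across libraries as described further on, differed by 0.08 between HT lithium and HT vehicle mice and by −0.57 between WT lithium and WT vehicle mice. With the striatal and olfactory scores as covariates the interaction was 0.13 for Cacna1c, 0.11 for Cacna1d and 0.12 for Cacna1g, and the WT lithium changes were −0.03 for Cacna1c and −0.04 for Cacna1d. Without the 19 libraries the interaction was 0.19, 0.12 and 0.10 for the same 3 genes, and the WT lithium changes were −0.12 and −0.08. None of these passed the adjusted threshold.

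**Figure D3:**
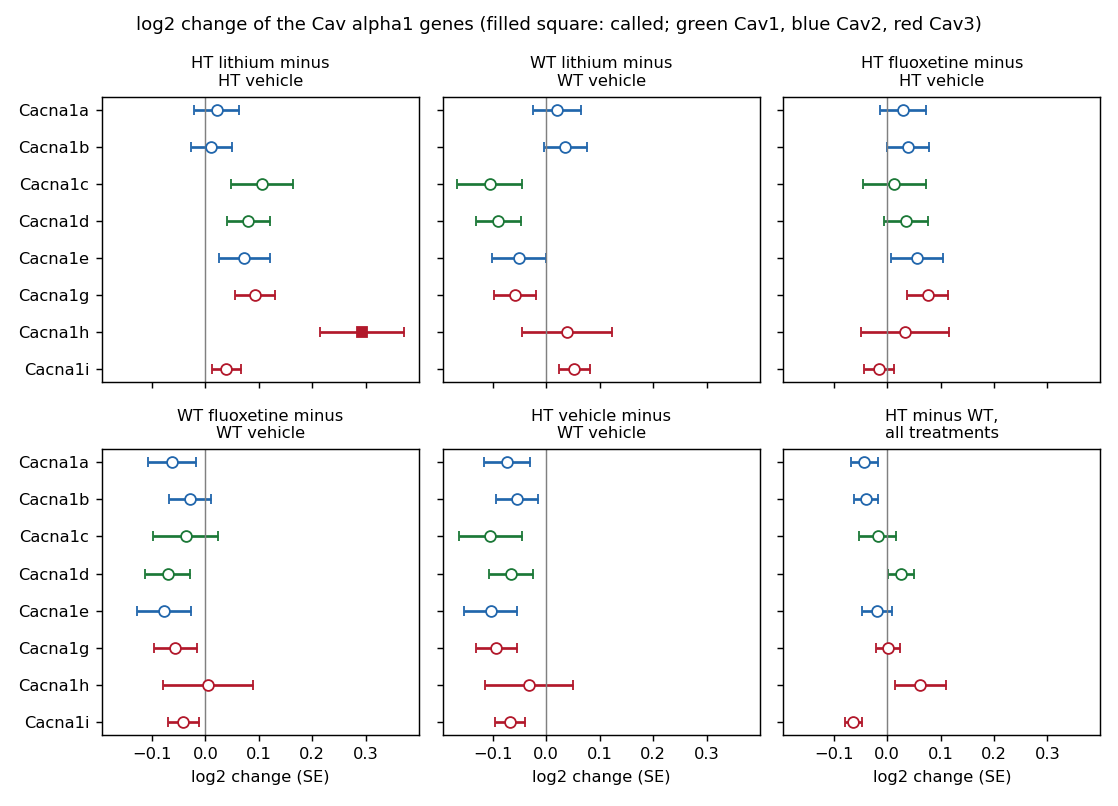
log2 changes (x axis, with SE) of the 8 genes (y axis) in 6 comparisons, from the limma fit over 56 libraries. Filled squares passed the adjusted threshold, and open circles did not. The 1 filled square is Cacna1h in HT lithium against HT vehicle mice, at 0.29, and all 8 circles lie below 0 in HT vehicle against WT vehicle mice.

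Partners of the channels were read from lists of genes. The list of 14 auxiliary subunit genes held members of the Cacnb, Cacna2d and Cacng families, whose products need not all act on the calcium pore. Of these 14 genes, 0 were called in HT lithium against HT vehicle mice by limma, voom, edgeR or DESeq2. At an unadjusted p under 0.05 there were 0, and the median was 0.02. In WT lithium mice, where 5.71% of all genes were called, limma and DESeq2 called 2 higher, while voom and edgeR called 0. These were the alpha2delta gene Cacna2d2 (0.18 ± 0.0534, adjusted p = 0.037) and the beta subunit gene Cacnb1 (0.11 ± 0.0358, adjusted p = 0.048). The Cacnb1 call was made in 5 of 12 alternatives and in 18 of 56 fits that left out 1 library. For Cacna2d2 these were 9 of 12 and 45 of 56. Over both genotypes 3 of the 14 were called higher under lithium, near the 16.2% of all genes called there, which added Cacnb2 (0.10 ± 0.0342, adjusted p = 0.041). The Cacnb2 call was made in 5 of 12 alternatives and in 42 of 56 fits that left out 1 library. Without the libraries of high marker score Cacna2d2 alone of these 3 kept its call over both genotypes (0.14, adjusted p = 0.0026), and with the slopes as covariates none did (Cacna2d2 0.10, adjusted p = 0.17).

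Of 14 calmodulin and release site genes, 4 were called lower and 1 higher in HT lithium mice, where 8.77% of all genes were called. Rims1, a scaffold that tethers Cav2 channels at the active zone, was lower by a log2 change of −0.25 ± 0.0471 in HT (adjusted p = 0.00059) and −0.20 ± 0.0499 in WT mice (adjusted p = 0.011). In HT mice Rims1 kept its call in 12 of 12 alternatives, with −0.22 without the libraries of high marker score (adjusted p = 0.008) and −0.22 with the slopes as covariates (adjusted p = 0.017). Its relative Rims2 was at −0.14 in HT mice (adjusted p = 0.046). The calmodulin gene Calm2 (−0.09, adjusted p = 0.04) also fell in HT lithium mice, and Bsn, a large active zone scaffold, rose by 0.11 (adjusted p = 0.047). In WT lithium mice limma called 2 of the 14, against 5.71% of all genes, voom and edgeR 1 and DESeq2 3. The SNARE gene Snap25 rose there by 0.13 (adjusted p = 0.048), a call made in 5 of 12 alternatives and in 27 of 56 fits that left out 1 library. Over both genotypes Rimbp2, whose product links RIM proteins to calcium channels, was higher by 0.12 (adjusted p = 0.01), and the scaffold gene Cask was lower at −0.09 (adjusted p = 0.015). Without the libraries of high marker score the adjusted p was 0.068 for Rimbp2 and 0.056 for Cask.

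Of 5 genes of the other alpha1 and leak channels, 4 were tested. Unc79 and Unc80, subunits of the sodium leak channel complex, rose in HT lithium mice by 0.16 (adjusted p = 0.0091) and 0.12 (adjusted p = 0.04). In that comparison 8.77% of all genes were called. Cacna1f of that list did not pass the filter. Of 5 calcium-activated potassium channel genes, Kcnmb4 fell in HT lithium mice, at −0.17 (adjusted p = 0.036). Kcnn2 was higher over both genotypes, where 16.2% of all genes were called, by 0.18 (adjusted p = 0.004, and 0.09 without the libraries of high marker score). Of 14 genes of calcium stores, pumps and exchangers, 0 were called in HT lithium mice by limma, voom, edgeR or DESeq2, with 1 at an unadjusted p under 0.05. In WT lithium mice, where 5.71% of all genes were called, limma called 2, voom and edgeR 1 and DESeq2 3. The 2 were the endoplasmic reticulum pump gene Atp2a2, higher by 0.16 (adjusted p = 0.028) and the plasma membrane pump gene Atp2b2, higher by 0.11 (adjusted p = 0.048), whose call was made in 5 of 12 alternatives and in 25 of 56 fits that left out 1 library. The 7 genes of small GTPases and STAC proteins that bind the channels gave 0 calls by these 4 tools and 0 at an unadjusted p under 0.05 in HT lithium mice, in WT lithium mice and over both genotypes. Of the 8 partner genes called in HT lithium mice, Rims1 and Kcnmb4 kept the call without the libraries of high marker score, and Rims1 alone kept it with the slopes as covariates. Of the 6 called in WT lithium mice, Rims1 and Cacna2d2 kept it without those libraries, and none did with the slopes. Of the 12 called over both genotypes, Bsn, Cacna2d2, Rims1 and Rims2 kept it without those libraries, and Cask, Kcnn2 and Rims1 with the slopes. Calls also fell over all genes. With the slopes limma called 409 genes in HT lithium mice against 1560, and 883 over both genotypes against 2872. Without those libraries it called 213 in WT lithium mice against 1016.

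Lithium and fluoxetine mice differed in another T-type gene, Cacna1i. It ran from 4744 through a median of 4928 to 5399 normalised reads in HT lithium libraries and from 4476 through 4841 to 4925 in HT fluoxetine libraries. In WT mice it ran from 4825 through 5150 to 5819 in lithium and from 4609 through 4922 to 5307 in fluoxetine libraries. The groups overlapped in both genotypes, with the highest values of each genotype under lithium. Over the genotypes the difference, lithium minus fluoxetine, was 0.07 ± 0.0201 on the log2 scale, or 5.26% (limma, adjusted p = 0.018), and 16 of 19 lithium libraries exceeded the fluoxetine mean of their genotype and sex.

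Cacna1i was the 1 member called in this comparison, where 6.5% of all genes were called. Neither drug was called for it against vehicle: the log2 change over the genotypes was 0.05 ± 0.0198 under lithium (adjusted p = 0.11) and −0.03 ± 0.0201 under fluoxetine (adjusted p = 0.57), 2 comparisons that share the vehicle libraries. Without the 19 libraries of high marker score the lithium minus fluoxetine value was 0.05 (adjusted p = 0.29), and with the length and GC slopes as covariates 0.04 (adjusted p = 0.57). The length slope was −0.01 to 0.05 in lithium and −0.04 to 0.03 in fluoxetine libraries. Cacna1h differed between lithium and fluoxetine by 0.15 ± 0.0587 (adjusted p = 0.13), and was called in 1 of 12 alternatives. That was the fit with the striatal and olfactory scores as covariates (0.16, adjusted p = 0.038), against 0.19 without the 19 libraries (adjusted p = 0.11) and 0.06 with the slopes (adjusted p = 0.83). All 8 members had a positive difference in this comparison, with a median of 0.02, and 49.9% of all genes did.

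**Figure D4:**
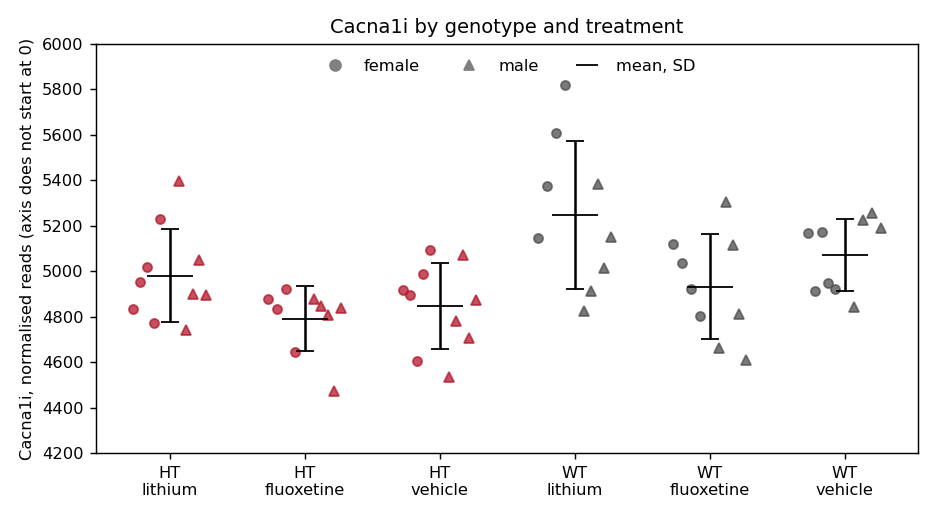
Cacna1i in normalised reads (y axis, not starting at 0) in each library by genotype and treatment (x axis), with HT in red and WT in grey. Circles are females, triangles males, and bars the mean and SD. Lithium libraries average 4981 in HT and 5248 in WT mice, against 4793 and 4932 in fluoxetine libraries of the same genotypes.

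HT mice had no called difference from WT mice in any member under vehicle, fluoxetine or lithium. Under vehicle all 8 genes had negative HT minus WT log2 differences, from −0.10 for Cacna1c and Cacna1e to −0.03 for Cacna1h, with a median of −0.07, while 51.6% of all genes lay above 0. At an unadjusted p under 0.05 there were 3 members: Cacna1g (−0.09, adjusted p = 0.39), Cacna1i (−0.07, adjusted p = 0.4) and Cacna1e (−0.10, adjusted p = 0.47). By limma 1765 of all 17778 tested genes had an unadjusted p under 0.05 there. After adjustment this comparison called 0.00562% of all genes, which was Scn2a alone. The HT vehicle libraries also serve as the controls of the lithium and fluoxetine comparisons in HT mice, so negative values here and positive values there rest partly on the same libraries.

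Under fluoxetine 5 of 8 HT minus WT differences were above 0, with 0 at an unadjusted p under 0.05. Of all genes 51.1% lay above 0 there and 0.0112% were called. Under lithium 5 of 8 were above 0, where 0.0337% of all genes were called and 47.5% lay above 0. At an unadjusted p under 0.05 there were 4 members, and 1832 of all 17778 tested genes. These 4 were Cacna1i (−0.08), Cacna1b (−0.08), Cacna1d (0.10) and Cacna1h (0.22), with a smallest adjusted p of 0.33. In each of the 3 treatments voom, edgeR and DESeq2 also called 0 members.

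The T-type gene Cacna1i came closest to a genotype effect over all treatments. It ran from 4476 through a median of 4878 to 5399 normalised reads in the 29 HT libraries and from 4609 through 5117 to 5819 in the 27 WT libraries. The ranges overlapped, and 27 of 29 HT libraries lay below the WT mean of their treatment and sex. Its log2 difference was −0.06 ± 0.0163, or −4.26% (unadjusted p = 0.00034, adjusted p = 0.11). It was −0.07 under vehicle, −0.04 under fluoxetine and −0.08 under lithium.

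By limma 0 members were called over all treatments, where 0.152% of all genes were called. At an unadjusted p under 0.05 there was 1 member, and 1437 of all 17778 tested genes. DESeq2 on recovered reads put Cacna1i past the threshold (adjusted p = 0.047), as did the fit with length and GC slopes (adjusted p = 0.035), while edgeR (adjusted p = 0.09) and voom (adjusted p = 0.096) did not. The other 7 members ran from −0.04 for Cacna1a to 0.06 for Cacna1h over all treatments. Of the 14 auxiliary subunit genes limma, voom, edgeR and DESeq2 called 0, and 3 had an unadjusted p under 0.05. The olfactory score differed by 0.13 and the striatal score by 0.11 between HT and WT libraries. With both scores as covariates Cacna1i was at −0.06 (adjusted p = 0.081), and without the 19 libraries at −0.07 (adjusted p = 0.21).

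Fluoxetine gave no called member in either genotype. In HT mice 7 of 8 log2 changes were above 0, from −0.02 for Cacna1i to 0.08 for Cacna1g, where 0.045% of all genes were called and 50.4% lay above 0. Cacna1g, the gene nearest to the threshold, ran from 4143 through 4396 to 4578 normalised reads in HT fluoxetine libraries and from 3664 through 4199 to 4551 in HT vehicle libraries. The groups overlapped, although 8 of 9 fluoxetine libraries lay above the vehicle mean of their sex (unadjusted p = 0.054, adjusted p = 0.59). In WT mice 7 of 8 changes were below 0, from −0.08 for Cacna1e to 0.00 for Cacna1h, where 0.146% of all genes were called and 51.3% lay above 0. In both genotypes 0 of 8 members had an unadjusted p under 0.05, and voom, edgeR and DESeq2 called 0.

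Over the genotypes fluoxetine called 0 members against 0.928% of all genes, with 0 of 8 at an unadjusted p under 0.05. The interaction of genotype and fluoxetine was positive for 8 of 8 members, with a median of 0.08, while 47.2% of all genes lay above 0. It contains, with the sign turned, the HT minus WT difference under vehicle, which was negative for all 8 members. Cacna1g alone had an unadjusted p under 0.05 (0.13 ± 0.0554, adjusted p = 0.86), beside 967 of all 17778 tested genes. No gene of the table was called in this interaction (0%). The olfactory marker score differed by −0.37 between HT fluoxetine and HT vehicle mice and by 0.34 between WT fluoxetine and WT vehicle mice. For Cacna1g the interaction was 0.15 with both scores as covariates (adjusted p = 0.6) and 0.09 without the 19 libraries (adjusted p = 0.72), where Cacna1h was at −0.08 (adjusted p = 0.91).

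Female and male libraries did not differ past the threshold in any member. The female minus male log2 differences ran from −0.02 for Cacna1e to 0.04 for Cacna1g, with 0 of 8 at an unadjusted p under 0.05, where 0.197% of all genes were called. The differences of the lithium, fluoxetine and genotype effects between the sexes called 0 members and 0% of all genes, with 1, 0 and 1 members at an unadjusted p under 0.05. Of all 17778 tested genes, 1273, 1514 and 965 were at that level. Cacna1b had the smallest unadjusted p for lithium, with an effect that was higher in females than in males by 0.13 ± 0.0546 (adjusted p = 0.69). Cacna1a had the smallest for genotype, with an effect lower in females by a difference of −0.12 ± 0.0503 (adjusted p = 0.91). In these 4 comparisons voom, edgeR and DESeq2 called 0 members.

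Beyond the groups, several members varied together across libraries. Each gene's log2 value was taken as a deviation from the mean of its group of genotype, treatment and sex, and all 28 pairs were correlated over the 56 libraries, with permutation within groups. At a Benjamini-Hochberg adjusted p under 0.05, 17 of 28 pairs passed by Pearson correlation, 11 of them positive, and 11 pairs passed by Spearman correlation. The 2 L-type genes, Cacna1c and Cacna1d, had the highest correlation, with r = 0.907 and rho = 0.906 (permutation p = 1e-05 for both, the smallest that the permutations can give, adjusted p = 9.3e-05 and 0.00014). Cacna1a and Cacna1b, the main presynaptic channel genes, had r = 0.796 and rho = 0.748 (adjusted p = 9.3e-05 and 0.00014). The T-type genes Cacna1g and Cacna1i had r = 0.604 and rho = 0.611 (adjusted p = 9.3e-05 and 0.00056). Without the 2 libraries farthest from the median of the first gene of each pair, r was 0.885, 0.763 and 0.582 for these 3 pairs.

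The T-type genes Cacna1h and Cacna1g also varied with the L-type genes. For Cacna1h r was 0.527 with Cacna1d (rho = 0.531, adjusted p = 0.00098 and 0.0019) and 0.478 with Cacna1c (rho = 0.46, adjusted p = 0.0031 and 0.0059), and for Cacna1g it was 0.431 with Cacna1d (adjusted p = 0.019) and 0.388 with Cacna1c (adjusted p = 0.033). Cacna1h had r = 0.296 with Cacna1g (adjusted p = 0.048) and −0.00869 with Cacna1i. The correlations of Cacna1a and Cacna1b with Cacna1c, Cacna1d and Cacna1h were negative: Cacna1a with Cacna1c gave r = −0.499 and rho = −0.401 (adjusted p = 0.0066 and 0.025), and Cacna1a with Cacna1h gave r = −0.444 and rho = −0.398 (adjusted p = 0.012 and 0.023). Cacna1a with Cacna1d, and Cacna1b with Cacna1c, Cacna1d and Cacna1h, passed by Pearson but not by Spearman correlation (Spearman adjusted p = 0.057, 0.057, 0.13 and 0.093). Without the 2 libraries farthest from the median of the first gene, r with Cacna1c, Cacna1d and Cacna1h was −0.436, −0.33 and −0.377 for Cacna1a. For Cacna1b it was −0.233, −0.183 and −0.192.

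Olfactory and excitatory marker scores moved with these genes. Of the 80 pairs of a member and a marker score, 17 passed by Pearson and 21 by Spearman correlation. The excitatory score had r = 0.766 with Cacna1a (rho = 0.638, adjusted p = 0.00011 and 0.0004), 0.755 with Cacna1b, −0.647 with Cacna1c, −0.627 with Cacna1d and −0.618 with Cacna1h. The olfactory score had the opposite signs, with r = −0.733 for Cacna1a, −0.712 for Cacna1b, 0.748 for Cacna1c (rho = 0.717, adjusted p = 0.00011 and 0.0004), 0.662 for Cacna1d and 0.51 for Cacna1h. Each of these 10 pairs also passed by Spearman correlation. Cacna1e had r = −0.62 with the microglia score (rho = −0.583, adjusted p = 0.00011 and 0.00046) and r = 0.628 with the slope of expression on transcript length (rho = 0.582, adjusted p = 0.00016 and 0.00096, over 16 pairs). Cacna1c had r = 0.478 with that slope (rho = 0.496, adjusted p = 0.005 and 0.0034). Cacna1e and Cacna1c have the longest transcripts among the members, at 14921 and 13162 bases. The slope is defined on transcript length, so a long transcript can follow it by construction. Cacna1i had r = −0.422 with the oligodendrocyte score, and Cacna1g −0.449.

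The correlations differed without the 19 libraries of high marker score. In the 37 libraries whose striatal and olfactory scores were at most 1, 14 of 28 member pairs passed by Pearson correlation and all 14 were positive. Cacna1c and Cacna1d had r = 0.813 there, Cacna1a and Cacna1b 0.666, and Cacna1g and Cacna1i 0.59. Cacna1a and Cacna1c stood at 0.101, and Cacna1b and Cacna1c at 0.54 (adjusted p = 0.028), against −0.436 in all 56 libraries, while Cacna1a and Cacna1h stayed negative at −0.118. Of the 80 pairs with marker scores 5 passed there by Pearson correlation and 1 by Spearman correlation. Cacna1e with the microglia score (r = −0.739, adjusted p = 0.0024) and Cacna1a with the olfactory score (r = −0.638, adjusted p = 0.047) were among them. The latter was the only excitatory or olfactory pair named above that still passed. With the olfactory score Cacna1c stood at 0.236 (adjusted p = 0.35) and Cacna1d at 0.0594 (adjusted p = 0.87).

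**Figure D5:**
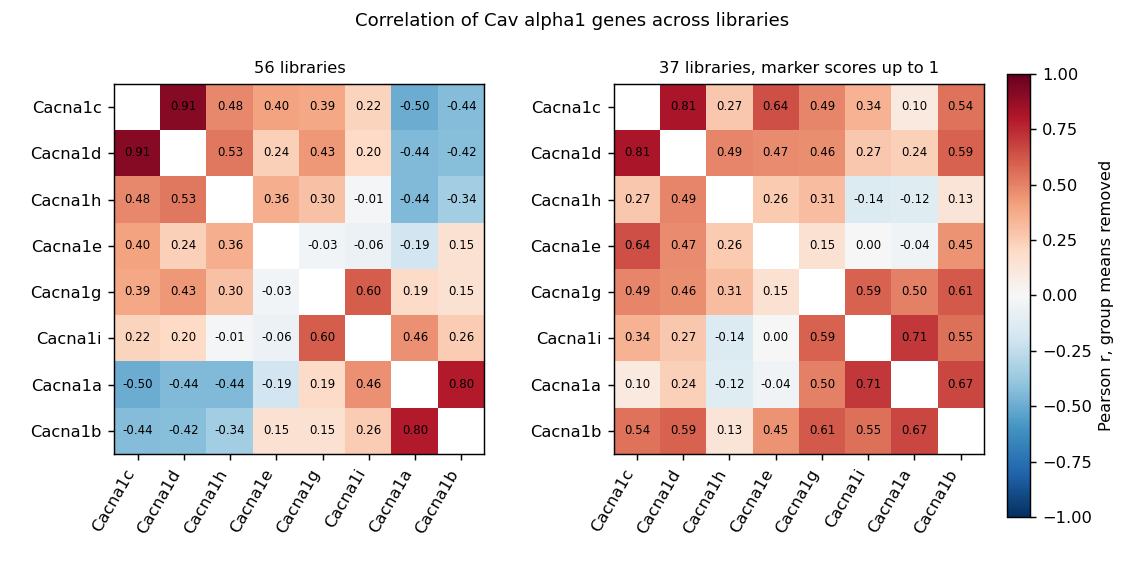
Pearson correlation (colour and number) between the 8 genes across libraries after group means were removed, in all 56 libraries (left) and in the 37 libraries with striatal and olfactory scores up to 1 (right). The block of negative values between Cacna1a or Cacna1b and the L-type genes in the left panel, down to −0.499, is positive in the right panel.

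The genes whose values followed each member most closely over the 56 libraries, again after group means were removed, are given as a description. Cacna1a was nearest to Unc13a (r = 0.918), whose product primes synaptic vesicles, then to the GABA-B receptor subunit gene Gabbr2 (0.881) and to Pdzrn3 (0.875). Cacna1b was nearest to the sodium channel gene Scn8a (0.887), then to D430041D05Rik and Unc13a (0.88 each). The median correlation of all genes with either was 0.013 or below.

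For the L-type pair, Cacna1c followed the histone acetyltransferase gene Kat6a (0.912) and then Cacna1d (0.907) and Eml5 (0.888), and Cacna1d followed Cacna1c, Eml5 (0.878) and Kat6b (0.851). Cacna1e followed Prrc2c (0.845), 4932438A13Rik (0.815) and Fry (0.784). Among the T-type genes, Cacna1h was nearest to the copine gene Cpne7 (0.85), Rere (0.818) and the transcription factor gene Rfx1 (0.801). Cacna1i was nearest to the chromatin remodeller gene Smarca4 (0.757), the potassium channel gene Kcnj12 (0.708) and Elmo2 (0.701). Cacna1g had the weakest neighbours: the corticotropin-releasing hormone receptor gene Crhr1 (0.735), Pdcd11 (0.668) and Crmp1 (0.649).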

How the data were processed

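The deposited table holds a signal per gene and library, made by the authors by dividing read counts by 1 size factor per library. The submitters' processing notes name GRCm38, Salmon 0.11.2, DESeq2 1.19.11 and R 3.6.0 (the annotation and strand setting are not given in the sources used here), and the kit was TruSeq Stranded mRNA per the labels' protocols. In every library 100% of values were whole multiples of a step (tolerance 0.01 reads), which gave the reads back. The check says nothing for HT vehicle males 2 and 5 and HT lithium female 5, whose step is close to 1. Size factors were 0.818 to 1.23, and 0 pairs of libraries were identical. Symbols were paired with 18077 IDs.

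Genes with a value of at least 10 in at least 4 libraries were tested (17778, with 310 left out). On log2(value + 1), limma 3.58.1 in R 4.3.3 estimated 12 group means, with its trend and robust settings. Sexes had equal weight. Called means a p-value under 0.05 after Benjamini-Hochberg adjustment over all genes tested. Fold changes of values so far above the pseudocount of 1 are little affected by it. Correlations used 100000 permutations within groups. The methods were tested on simulated data.

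Alternatives were TMM, voom, edgeR 4.0.16 and DESeq2 1.42.0 on recovered reads, no filter, pseudocounts of 0.5 and 5, a replicate block, a fit to the compared groups alone, marker scores as covariates, leaving out 19 libraries of high score, and leaving out each library. Length and GC slopes, the longest transcript and correlations without these slopes were added after seeing the data. The genes and lists were chosen with earlier results of these data known. The rule named all 8 members, Scn2a, up to 4 called genes per partner list and comparison by p, and the 3 nearest genes of each member. Bsn in HT lithium mice and Cask over both genotypes ranked below these and were named after their values were seen. Some genes of the lists count in the totals but are not reported here by name.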

Additional observations from a re-analysis of the deposited data

Results flagged for a closer look

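Within the 12 groups of 4 or 5 libraries, 96 sets of values (8 genes in 12 groups) were searched for a single library far from the rest of its group, and 6 were found, where chance gives about 1 in 20 sets. Cacna1e was at 11165 normalised reads in HT lithium male 3, against 9076 to 9335 in the other 4 libraries of its group. That library also had one of the steepest length slopes, 0.0459. Cacna1e was at 10614 in WT fluoxetine male 5, against 8892 to 9144, and this library had the lowest GC slope of all, −0.15, and an olfactory score of 1.15. Cacna1b was at 4478 in HT lithium female 3, against 5194 to 5445, in a library with an olfactory score of 1.99 and an excitatory score of −0.314. Cacna1a was at 7131 in HT lithium male 5, against 7804 to 7995. Cacna1i was at 4476 in HT fluoxetine male 4, against 4809 to 4880, and at 4844 in WT vehicle male 1, against 5189 to 5256. What set these libraries apart was not tested.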

How the results depend on the processing

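In 13 of the 17 comparisons the number of members called was the same in each alternative run. In HT lithium against HT vehicle mice it was 1, and it was 0 without the libraries of high striatal or olfactory score and 0 with length and GC slopes as covariates. Over the genotypes lithium called 1, and 0 with edgeR, 0 without those libraries and 0 with the slopes. Leaving out 1 library at a time gave 0 to 1 there. Cacna1h then kept its call in 39 of 56 fits, with adjusted p-values of 0.05 to 0.076 in fits without HT lithium females 3 and 5 or males 3 and 4, HT vehicle female 4 or males 1, 2 and 5, WT lithium females 3 and 4 or males 4 and 5, or WT vehicle females 1, 2 and 4 or males 2 and 3. Lithium against fluoxetine called 1, and 2 with marker scores as covariates, 0 without the high-score libraries and 0 with the slopes. Genotype over treatments called 0, and 1 with DESeq2 and 1 with the slopes. In the other fits that left out 1 library the number of members called did not change, with adjusted p-values of 0.0048 to 0.037 for Cacna1h under lithium in HT mice and 0.0069 to 0.043 for Cacna1i between the drugs. Over all genes, lithium in HT mice called 409 (slopes) to 2032 (marker scores as covariates) genes against 1560, lithium in WT mice 213 (without high-score libraries) to 1152 against 1016, lithium over the genotypes 883 (slopes) to 3496 against 2872, and lithium against fluoxetine 157 (slopes) to 1535 against 1156. Fluoxetine over the genotypes called 6 (without high-score libraries) to 311 against 165, and genotype over treatments 16 to 65 against 27. The ranges were 2 to 19 against 8 for fluoxetine in HT mice, 0 to 133 against 26 in WT mice, 1 to 34 against 1 for genotype under vehicle, 1 to 3 against 2 under fluoxetine and 3 to 16 against 6 under lithium. DESeq2 called 11 genes against 0 for genotype by lithium and 10 against 0 for sex by fluoxetine.

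Without the libraries of high score, 5 marker score correlations passed, and 6 correlations turned: Cacna1a with Cacna1c (0.101) and Cacna1d (0.236), Cacna1b with Cacna1c (0.54), Cacna1d (0.591) and Cacna1h (0.128), and Cacna1c with the excitatory score (0.00364). Fewer libraries entered there, 37 of 56. A fit to the compared groups alone was not run where all groups are compared. With the replicate block, Cacna1h under lithium in HT mice was at 0.29 (adjusted p = 0.0088), and no number of called members changed. Replicate numbers of the sample titles showed no pairing of the libraries. The median correlation of deviations was −0.00161 for the same number and −0.000226 for others, and 9 of 56 libraries were closest to their own number. In WT fluoxetine females and WT lithium females some title numbers differ from those in the library names, and pairing by library name was not tested. No scaling moved the median log2 change of all genes by more than 0.01. The lowest member value in any library was 1803 normalised reads. The part of read counting in the spread between libraries was not tested.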
